A study of Mus musculus with 47 samples.

Results

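Autophagy is the route by which a cell wraps part of its cytoplasm in a double membrane and delivers it to the lysosome for breakdown. The Ulk1 kinase complex starts the process, a lipid kinase complex built around Becn1 marks the membrane, and a pair of ubiquitin-like systems then attaches proteins of the Atg8 family, such as LC3, to it. In that step Atg7 activates the ubiquitin-like proteins, and Atg16l1 brings the Atg12 and Atg5 conjugate to the membrane. In the intestinal epithelium this machinery is known for the control of bacteria that enter cells and for the granules of Paneth cells. Atg16l2 is a paralogue of Atg16l1 that also binds Atg5.

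Transcript levels of 10 genes of this pathway, out of 38087 in the deposited count table, were followed here across 2 gut tissues, 2 states of the gut flora and 6 times of day. The genes were taken by symbol: Ulk1, Becn1, Atg7, Atg5, Atg16l1, Atg16l2, Map1lc3a, Map1lc3b, Gabarapl1 and Sqstm1. All 10 were found in the table and all 10 passed the filter on low counts in both tissues. Atg16l2 was included because its level had been seen to move in opposite directions in the 2 tissues, so its values between germ-free and conventional mice are a description and carry no test. The other 9 were chosen by name.

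The animals were male C57BL/6j mice aged 15 to 16 weeks and fed ad libitum, with no genetic change given in the labels. Germ-free (GF) mice, which live without microbes, were set against mice raised conventionally (convR). Duodenum, the first segment of the small intestine, and ileum, the last, were collected at zeitgeber time (ZT, hours after lights on) 2, 6, 10, 14, 18 and 22. This gave 47 RNA libraries: 12 convR and 12 GF of duodenum, and 12 convR and 11 GF of ileum. Each time and group had 2 libraries, except GF ileum at ZT 2, which had 1. The labels do not say whether the libraries came from separate animals, so the p-values measure the spread between these samples.

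Total counts ran from 22546800 to 41911085 reads per library, with a median of 31935017. The tissue labels fitted their region markers: the summed level of 6 duodenum markers was 1305 to 4018 CPM (the counts-per-million scale, after edgeR's TMM scaling for library composition) in duodenum libraries and 40.5 to 455.2 CPM in ileum libraries. In 7 duodenum and 2 ileum libraries other measures stood apart. Those in duodenum averaged over 200 CPM across the pancreas or the stomach markers, or had a TMM factor over 1.2 (convR ZT 6 replicate 1, both convR libraries of ZT 14, convR ZT 22 replicate 2, GF ZT 6 replicate 1 and both GF libraries of ZT 22). Those in ileum had a low level of the ileal bile acid carrier Fabp6, with 207.4 CPM in convR ZT 6 replicate 2 and 609.1 CPM in GF ZT 22 replicate 2. Results without these libraries were computed as well.

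The sequence upstream of Atg16l2, the gene that differed most, is shown with those of Gabarapl1 and Ulk1, which rose in GF duodenum. Promoters were taken from RefSeq (GRCm38.p6), where 7 of the 10 genes were matched, and cover 250 bases before the RefSeq start of the gene. Bases that lie inside the first exon of a GENCODE M21 transcript are left out, except for 1 window of 30 bases in Atg16l2. Capitals mark matches, on either strand, to the motifs searched.
Atg16l2 upstream, chr7:101302252-101302338, minus strand: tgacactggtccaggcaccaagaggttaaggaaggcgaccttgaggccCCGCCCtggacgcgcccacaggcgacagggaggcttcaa
Atg16l2 site, chr7:101302089-101302118, minus strand: ctgctgCCGCCCTGACGTCAtggagtcccc
Gabarapl1 upstream, chr6:129532942-129533159, plus strand: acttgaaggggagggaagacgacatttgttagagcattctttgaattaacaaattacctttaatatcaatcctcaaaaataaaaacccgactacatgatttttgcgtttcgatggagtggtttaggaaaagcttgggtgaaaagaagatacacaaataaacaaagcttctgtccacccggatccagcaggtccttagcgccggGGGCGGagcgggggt
Ulk1 upstream, chr5:110810098-110810331, minus strand: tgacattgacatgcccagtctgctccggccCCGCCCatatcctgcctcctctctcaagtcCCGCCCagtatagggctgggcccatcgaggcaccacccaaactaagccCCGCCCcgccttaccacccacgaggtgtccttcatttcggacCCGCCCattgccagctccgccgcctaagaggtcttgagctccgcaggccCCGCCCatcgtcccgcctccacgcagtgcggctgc

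In the 250 bases of Atg16l2 there was 1 match to the cAMP response element TGACGTCA, starting 18 bases before the RefSeq start, next to a GC box (GGGCGG). The cAMP motif occurs in 1.546% of all 32851 promoter stretches of that length and the GC box in 32.742%. Atg16l2 had 2 GC boxes, Gabarapl1 2 (1 of them in the bases left out) and Ulk1 5. The E-box CACGTG, found in 6.021% of promoters, was matched once each in Atg5 and Atg7. None of the 7 promoters matched the Foxo site GTAAACA (3.166% of promoters) or the antioxidant response motif TGACNNNGC (10.161%). The motifs overlapped nowhere in the printed stretches. A match describes letters only.

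Atg16l2 (mm10 chr7:101263034-101302251, minus strand, 3881 bases of exon in the deposited table) was slightly lower in GF than in convR duodenum and far higher in GF than in convR ileum. In duodenum it lay at 3.47, 4.86 and 5.49 CPM (lowest, median and highest library) in convR and at 2.94, 3.46 and 5.27 CPM in GF. In ileum it lay at 4.60, 6.94 and 10.45 CPM in convR and at 12.8, 18.4 and 28.5 CPM in GF. The GF and convR libraries overlapped in duodenum and did not overlap in ileum, where the lowest GF library stood above the highest convR library. Behind these levels were 66 to 201 reads per duodenum library and 144 to 825 reads per ileum library.

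The group means of Atg16l2 were 4.67 ± 0.617 CPM in convR duodenum (SD, n = 12), 3.55 ± 0.648 CPM in GF duodenum (SD, n = 12), 6.97 ± 1.66 CPM in convR ileum (SD, n = 12) and 19.4 ± 4.70 CPM in GF ileum (SD, n = 11). As log2 fold changes, GF differed from convR by -0.40 ± 0.0885 (SE) in duodenum and by 1.46 ± 0.144 (SE), or 2.75-fold, in ileum. The 2 values differed by 1.87 ± 0.169 (SE). The direction was the same at 6 of 6 times in each tissue. These values chose the gene and were not tested. For scale, GF and convR libraries did not overlap for 3.68% of the genes tested in duodenum (1.6% higher and 2.07% lower in GF) and 6.01% in ileum (1.52% higher and 4.49% lower). Without the libraries that stood apart the log2 values were -0.35 in duodenum and 1.42 in ileum.

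By time of day, GF ileum ran from a mean of 15.95 CPM at ZT 2 (1 library) over 22.5 CPM at ZT 6 to 17.0 CPM at ZT 22. ConvR ileum was lowest at ZT 10, with 5.68 CPM, and highest at ZT 18, with 9.10 CPM. The 2 GF ileum libraries of ZT 10 held both the lowest and the highest value of their group, 12.8 and 28.5 CPM, so the spread within 1 time was as wide as that across the day. A 24 h cosine did not pass the test for Atg16l2 in either tissue (edgeR, adjusted p = 0.638 in duodenum and 0.78 in ileum).

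**Figure D1:**
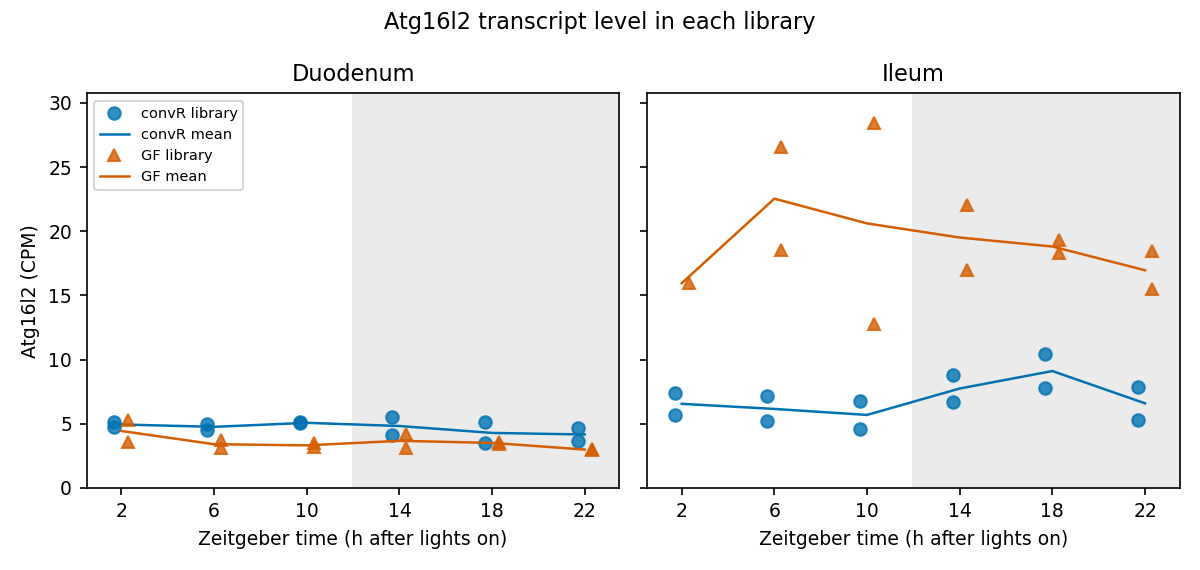
Atg16l2 level (TMM-scaled CPM, y axis) in each library by zeitgeber time (h, x axis) in duodenum and ileum, with circles for convR, triangles for GF, lines through the means of each time and the hours from ZT 12 shaded. GF ileum libraries lie between 12.8 and 28.5 CPM at all times, above the convR ileum libraries (4.60 to 10.45 CPM), while the duodenum groups overlap below 5.5 CPM.

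Between tissues, averaged over both states, Atg16l2 was higher in ileum by 1.51 ± 0.0846 log2 (SE; edgeR quasi-likelihood test, adjusted p = 1.87e-18). That contrast was not itself used to choose the gene, but it includes the GF ileum libraries behind the choice. The tissue difference was unlike in the 2 states. Means were 4.67 CPM in duodenum and 6.97 CPM in ileum of convR, and 3.55 and 19.4 CPM in GF. The average and its p-value therefore describe neither state alone. The ranges of convR duodenum and convR ileum overlapped, whereas every GF ileum library stood above every GF duodenum library.

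In bulk tissue, fewer cells of a type and less RNA per cell cannot be told apart. Markers of several cell types also differed between GF and convR ileum, some lower and some higher in GF. The summed level of 7 markers shared by leukocytes was 133.5 to 297.7 CPM in convR ileum and 41.0 to 105 CPM in GF ileum, and 7 of 7 fell. For 10 T-cell markers the sums were 39.6 to 78.0 CPM in convR and 2.79 to 9.15 CPM in GF ileum, and 10 of 10 fell. For 8 smooth muscle markers the sums were 1901 to 2781 CPM in convR and 2553 to 3395 CPM in GF ileum, and 8 of 8 rose. For 8 markers of fibroblasts and vessels the sums were 525.1 to 811.3 CPM in convR and 412.5 to 585.1 CPM in GF ileum, and 8 of 8 fell. Of 7 markers of enteric neurons and glia 0 passed. Among all genes tested in ileum 19.5% were higher and 22.4% lower in GF.

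In duodenum 7 of 7 leukocyte markers fell as well, with sums of 165.8 to 311 CPM in convR and 108.6 to 169.2 CPM in GF, and 1 of 8 smooth muscle markers rose. Of the fibroblast and vessel markers 3 of 8 fell there, and 1 of 7 markers of enteric neurons and glia rose. Among all genes tested in duodenum 22.5% were higher and 23.8% lower in GF. Of 7 Paneth cell markers 7 fell in each tissue, from sums of 1904 to 5027 CPM to 1031 to 2908 CPM in duodenum and from 11800 to 21670 CPM to 5804 to 13870 CPM in ileum. Of 8 enterocyte markers 5 rose in duodenum, while in ileum 3 rose and 1 fell. In the lists named in this and the preceding paragraph no marker was at 0 in a whole group. The part of these cell types in the results was not tested.

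The 5 protein-coding genes nearest to Atg16l2 were read in the same contrasts. The gene Fchsd2, which overlaps the gene on the opposite strand and shares 25 bases of exon with it, rose in GF in both tissues, by 0.61 log2 in duodenum and 0.57 in ileum (edgeR, adjusted p = 0.000839 and 0.000185). Stard10, 14835 bases away, rose by 0.15 in ileum (adjusted p = 0.00694, edgeR), and in duodenum its value was 0.04 (adjusted p = 0.592). P2ry6, 288385 bases away, fell by 0.37 in duodenum (adjusted p = 0.00963, edgeR) and was at -0.20 in ileum (adjusted p = 0.0534). P2ry2, a nucleotide receptor gene 250168 bases away, rose by 0.28 in ileum (adjusted p = 0.00112, edgeR), with -0.53 in duodenum (adjusted p = 0.318). Arap1, 45816 bases away, did not pass in either tissue. The difference between the tissues passed the test for none of these 5 neighbours, with edgeR adjusted p of 0.0924 to 0.954.

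The 5 genes whose log2 level followed Atg16l2 most closely over the 47 libraries, among 12389 genes compared, were Eml6 (Pearson r = 0.911), Arhgap35 (0.909), Lmna (0.902), Rtn4 (0.900) and Dpysl2 (0.894). The libraries share tissue and flora state, and within GF ileum the correlations were 0.15 to 0.57. Eml6, Arhgap35, Rtn4 and Dpysl2 had the same order of group means as Atg16l2. For Eml6 they were 5.80 CPM in convR duodenum, 4.29 in GF duodenum, 8.55 in convR ileum and 13.7 in GF ileum. In duodenum Arhgap35 (48.3 CPM in convR and 47.5 in GF) and Dpysl2 (57.6 and 57.0) hardly differed. The annotated spans of Eml6 and Rtn4 overlap. Lmna, which encodes the nuclear lamins A and C, had means of 73.4 and 75.6 CPM in convR and GF duodenum and of 152.1 and 266.2 CPM in convR and GF ileum.

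Levels of different genes are compared per kilobase of exon. On that scale Sqstm1, the cargo receptor also called p62, was highest of the 10 in all 4 groups, from 36.9 ± 8.74 CPM per kb in convR duodenum to 54.4 ± 6.04 in convR ileum (SD, n = 12 each). In convR duodenum it was followed by Atg5 (19.4 CPM per kb), Becn1 (17.3), Atg16l1 (13.2), Gabarapl1 (8.55), Map1lc3b (7.95), Map1lc3a (7.52), Atg7 (4.41), Ulk1 (3.56) and Atg16l2 (1.203). The means of the 3 Atg8 family genes lay within 1 SD of each other there. Atg16l2 was last in 3 groups. In GF ileum it reached 4.98 ± 1.21 CPM per kb (SD, n = 11), above Ulk1 at 3.48 ± 0.485 and within 1 SD of Atg7 at 5.27 ± 0.399. Its paralogue Atg16l1 was at 12.0 ± 0.651 CPM per kb in the same libraries. The order of the genes rests on the deposited exon lengths. For Atg16l2 that length was 3881 bases, where GENCODE M21 has 8469, and for Atg7 3863 bases, where GENCODE M21 has 6968.

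**Figure D2:**
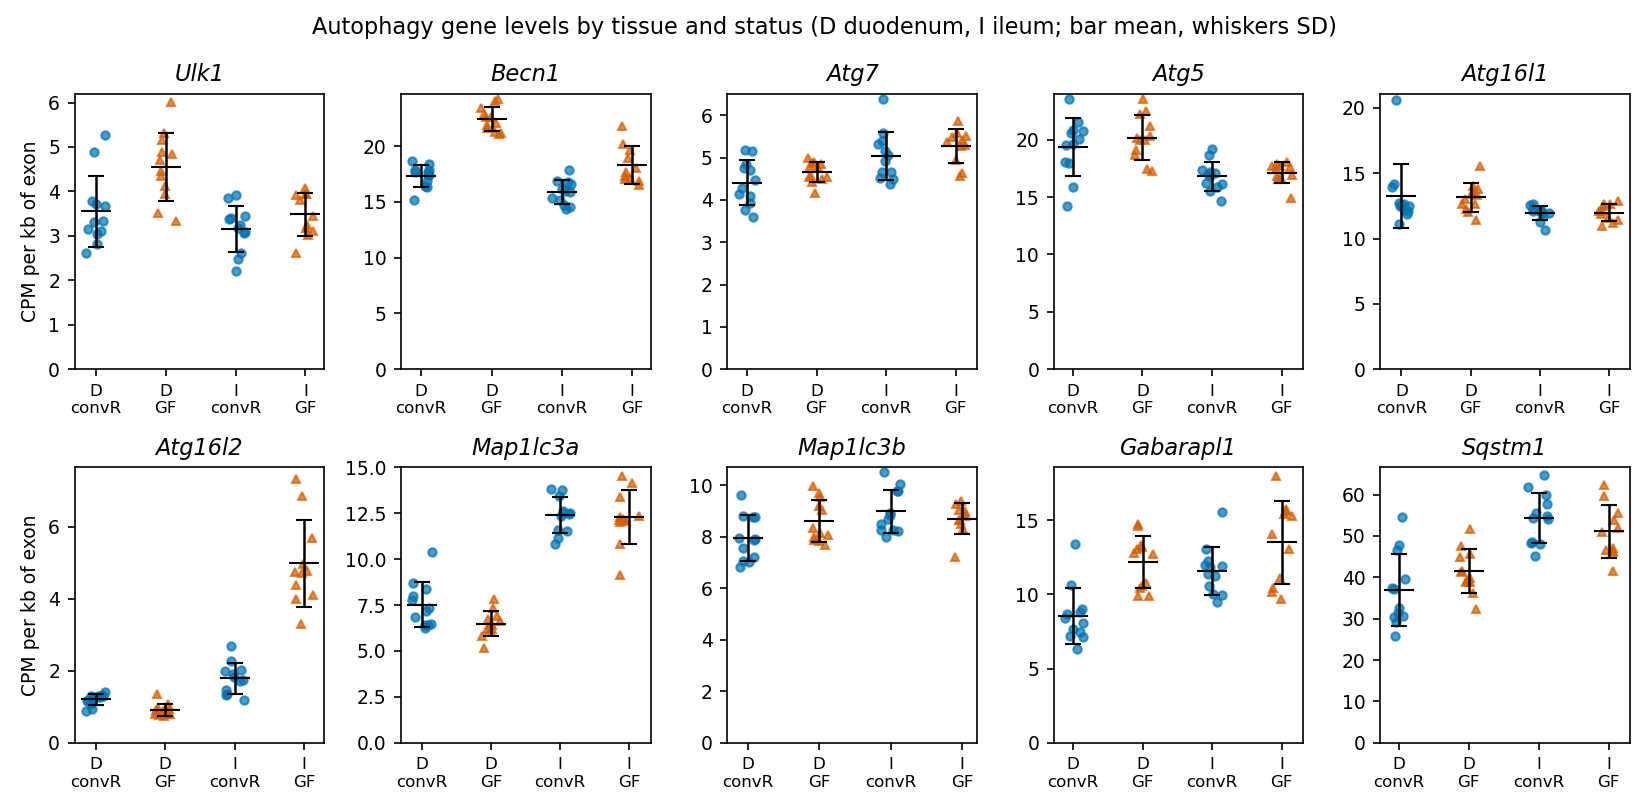
Level of each gene in CPM per kb of exon (y axes, starting at 0) by tissue and status (x axes), with 1 point per library, bars for the mean and whiskers for the SD over 11 or 12 libraries. Atg16l2 is set apart in GF ileum, with a mean of 4.98 CPM per kb against 1.203 or less in duodenum, and Becn1 is higher in every GF duodenum library than in any convR duodenum library.

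Of the other 9 genes, 4 passed the test between GF and convR in duodenum (edgeR, adjusted p under 0.05) and all 4 were higher in GF. Of all 17986 genes tested there, 46.3% passed, and 22.5% were higher. In ileum 1 of 9 passed, also higher in GF, where 42% of 18082 genes passed and 19.5% were higher. The median log2 change of the 9 was 0.12 in duodenum and 0.03 in ileum, beside -0.01 and 0.01 over all genes. Without the libraries that stood apart the counts were again 4 and 1. With libraries scaled by their total alone 3 passed in duodenum, 2 higher and 1 lower, and 1 in ileum.

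Ulk1 (chr5:110784488-110810097), the kinase that starts autophagy, was at 13.6, 17.3 and 27.4 CPM in convR duodenum (lowest, median, highest) and at 17.4, 23.9 and 31.4 CPM in GF duodenum. The groups overlapped, and GF was higher at 6 of 6 times. It rose by 0.36 ± 0.11 log2 (SE; edgeR, adjusted p = 0.0111), which did not pass when libraries were scaled by their total alone (0.22, adjusted p = 0.154). In ileum its means were 16.5 ± 2.68 CPM in convR (SD, n = 12) and 18.2 ± 2.53 CPM in GF (SD, n = 11), a difference of 0.13 log2 that did not pass (edgeR, adjusted p = 0.256).

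Becn1 (chr11:101285952-101302286), the scaffold of the lipid kinase complex, rose in both tissues. In duodenum it was at 111.6, 129.4 and 137.6 CPM in convR and at 155.5, 164.8 and 178.7 CPM in GF, with no overlap (1.6% of genes tested had every GF duodenum library above every convR one). Its log2 change was 0.37 ± 0.0429 (SE; edgeR, adjusted p = 5.56e-07). In ileum it was at 105.8, 117.6 and 132 CPM in convR and at 121.8, 130.4 and 160.9 CPM in GF, with overlap and a change of 0.20 ± 0.0528 log2 (SE; edgeR, adjusted p = 0.00456). The direction was the same at 6 of 6 times in each tissue.

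Becn1 shares 43.93% of its exon bases with Cntd1 on the opposite strand, and the strand setting of the counting is not given in the sources used here. Cntd1 itself had means of 2.71 to 3.81 CPM in the 4 groups and did not pass in duodenum (0.14 log2, edgeR, adjusted p = 0.334) or ileum (0.27, adjusted p = 0.106).

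Of the genes of the conjugation step, Atg7, Atg5 and Atg16l1 did not pass in either tissue. Atg7, the activating enzyme, was at 17.0 ± 2.04 CPM in convR and 18.01 ± 0.930 CPM in GF duodenum (SD, n = 12 each), and its log2 values were 0.09 in duodenum and 0.06 in ileum (edgeR, adjusted p = 0.189 and 0.362). Atg5 was at 47.4 ± 6.19 and 49.4 ± 4.73 CPM in convR and GF duodenum (SD, n = 12 each), with log2 values of 0.06 and 0.03 (adjusted p = 0.492 and 0.64, edgeR). Atg16l1 (chr1:87755870-87792428) was at 113.1, 127.6 and 209.5 CPM in convR and 116.3, 134.2 and 158.4 CPM in GF duodenum. In ileum it was at 108.5, 122.6 and 128.7 CPM in convR and 111.5, 122.8 and 131 CPM in GF. Its log2 change was -0.01 ± 0.0713 (SE) in duodenum and -0.01 ± 0.0372 (SE) in ileum, with full overlap of the groups (edgeR, adjusted p = 0.953 and 0.902). In the same ileum libraries the GF and convR ranges overlapped for Atg16l1 and did not overlap for its paralogue.

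Within the Atg8 family, Gabarapl1 (chr6:129533160-129542346) was at 11.2, 14.6 and 23.6 CPM in convR and at 17.4, 22.5 and 26.0 CPM in GF duodenum. The groups overlapped through 2 convR libraries, ZT 18 replicate 2 and ZT 22 replicate 2, and GF was higher at 6 of 6 times. It rose by 0.51 ± 0.0862 log2 (SE; edgeR, adjusted p = 5.78e-05). In ileum its means were 20.5 ± 2.86 CPM in convR (SD, n = 12) and 23.8 ± 4.92 CPM in GF (SD, n = 11), and the 0.21 log2 between them did not pass (edgeR, adjusted p = 0.122). Gabarapl1 shares 28.32% of its exon bases with 1700101I11Rik on the opposite strand, which reached at most 0.354 CPM in any library.

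Map1lc3b, which encodes the LC3B protein used as a mark of autophagosomes, was at 51.3, 59.4 and 72.3 CPM in convR and 57.7, 61.9 and 74.9 CPM in GF duodenum. Its rise of 0.12 ± 0.0471 log2 (SE; edgeR, adjusted p = 0.0485) was lost when any of 16 of the 24 libraries was left out (adjusted p 0.0194 to 0.0988 over all 24) and turned to -0.01 (adjusted p = 0.859) with scaling by library total alone. In ileum it was at -0.05 (edgeR, adjusted p = 0.364). Map1lc3a was at 7.37, 8.58 and 12.3 CPM in convR and 6.09, 7.62 and 9.26 CPM in GF duodenum, with a log2 value of -0.21 ± 0.0875 (SE; edgeR, adjusted p = 0.0534). It passed when any of 7 libraries was left out: convR ZT 2, ZT 6, ZT 18 and ZT 22 replicate 1, convR ZT 10 replicate 2, GF ZT 2 replicate 1 or GF ZT 22 replicate 2 (lowest adjusted p = 0.0234). It also passed as lower in GF with libraries scaled by their total alone (-0.33, edgeR, adjusted p = 0.00319) and with ZT as cosine and sine (-0.21, adjusted p = 0.0424). In ileum it was at -0.02 (edgeR, adjusted p = 0.81).

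Sqstm1 (chr11:50199366-50210827) was at 86.8, 117.3 and 183 CPM in convR and at 108.5, 136 and 173.1 CPM in GF duodenum, and the ranges overlapped. Its log2 value of 0.18 ± 0.0986 (SE) did not pass (edgeR, adjusted p = 0.132). Leaving out convR ZT 22 replicate 2, which had the highest Sqstm1, Gabarapl1, Map1lc3a and Atg16l1 of its group, gave 0.25 (edgeR, adjusted p = 0.0227). That library also had a pancreas marker mean of 351.2 CPM. In ileum Sqstm1 was at 151.6, 183.2 and 217.2 CPM in convR and at 139, 171.3 and 209.1 CPM in GF (-0.08 log2, edgeR, adjusted p = 0.328). Sqstm1 shares 17.28% of its exon bases with Mrnip on the opposite strand, which had group means of 1.89 to 2.32 CPM.

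**Figure D3:**
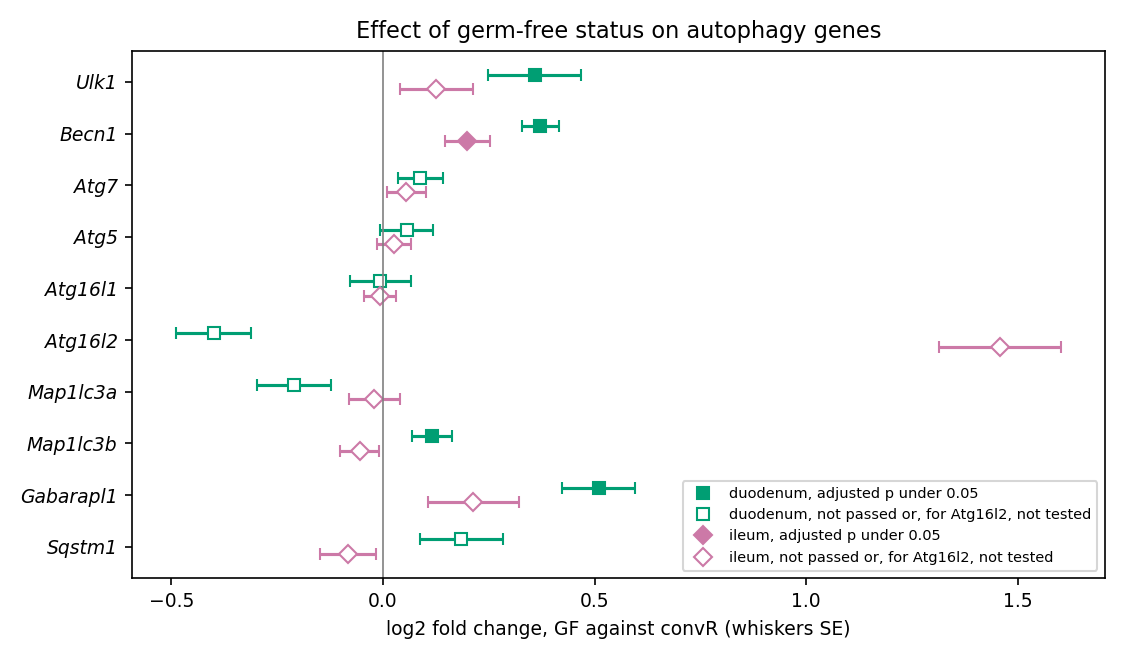
Log2 fold change of GF against convR (x axis, whiskers SE) for the 10 genes (y axis), squares for duodenum and diamonds for ileum, filled where the edgeR adjusted p was under 0.05. Atg16l2, which was not tested, lies at -0.40 in duodenum and 1.46 in ileum, while the other 9 lie between -0.21 and 0.51.

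The difference of the GF effect between ileum and duodenum passed for 0 of the 9 genes (edgeR, adjusted p under 0.05; 12.3% of 19000 genes passed, 4.58% higher and 7.69% lower in ileum). At an unadjusted p under 0.05 there were 4 (Becn1, Map1lc3b, Sqstm1 and Gabarapl1, with log2 values of -0.17, -0.16, -0.26 and -0.29), and DESeq2 also called 0, as did edgeR without the libraries that stood apart. Leaving out GF ileum ZT 22 replicate 2 brought Becn1 past the threshold (-0.20, edgeR, adjusted p = 0.0264), and leaving out convR duodenum ZT 22 replicate 2 did so for Sqstm1 (-0.33, edgeR, adjusted p = 0.0483). So calls in duodenum and not in ileum do not show that the effect differed.

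Between tissues, averaged over both states, all 10 genes passed the test. Of 19000 genes 69.7% passed, 36.4% higher and 33.3% lower in ileum. Atg16l2 is in the count of 10, although its average includes the GF ileum libraries behind its choice. Each of the others passed as well. The libraries of the 2 tissues overlapped for each of the 10, and did not overlap for 4.04% of the genes tested. Higher in ileum were 6: Atg16l2, Map1lc3a by 0.82 ± 0.0535 log2, Sqstm1 by 0.44 ± 0.0617, Gabarapl1 by 0.30 ± 0.0708, Atg7 by 0.18 ± 0.0343 and Map1lc3b by 0.10 ± 0.0326 (SE; edgeR, adjusted p from 1.67e-16 for Map1lc3a to 0.00911 for Map1lc3b). Lower in ileum were 4: Ulk1 at -0.28, Atg5 at -0.21, Becn1 at -0.21 and Atg16l1 at -0.14 (edgeR, adjusted p from 4.06e-07 for Becn1 to 0.00261 for Atg16l1). Map1lc3b did not pass without the libraries that stood apart (0.07, adjusted p = 0.115), nor Atg16l1 with scaling by library total alone (-0.07, adjusted p = 0.139). Map1lc3a had the clearest separation after Atg16l2, with 6.09 to 12.3 CPM over all duodenum libraries and 10.8 to 17.2 CPM over all ileum libraries.

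For time of day, a cosine of 24 h shared by both states passed for 1 of 10 genes in duodenum (5.7% of genes passed) and 0 of 10 in ileum (3.67%). In ileum 1 of the 10, Atg7, had an unadjusted p under 0.05 (edgeR), and DESeq2 also called 0. The gene in duodenum was Map1lc3b, with a peak-to-trough range of 0.29 log2 and a fitted peak at ZT 23.9 (edgeR, adjusted p = 0.0229). Its means in convR duodenum were 59.7, 59.6, 52.0, 56.7, 61.4 and 69.3 CPM at ZT 2, 6, 10, 14, 18 and 22. In GF duodenum they were 69.9, 68.8, 58.5, 59.6, 61.0 and 71.1 CPM at the same times. Both states were lowest at ZT 10 and highest at ZT 22. The call was lost without ZT 22 (adjusted p = 0.165), where 3 of the 4 duodenum libraries stood apart, and without all libraries that stood apart (adjusted p = 0.0732).

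Whether rhythms differed between GF and convR was tested over all genes, and 0 passed in either tissue (edgeR; 0% of genes, with 739 genes in duodenum and 608 in ileum at an unadjusted p under 0.05, and 0 by DESeq2). Of the 10 genes, 0 had an unadjusted p under 0.05 there in either tissue (edgeR).

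**Figure D4:**
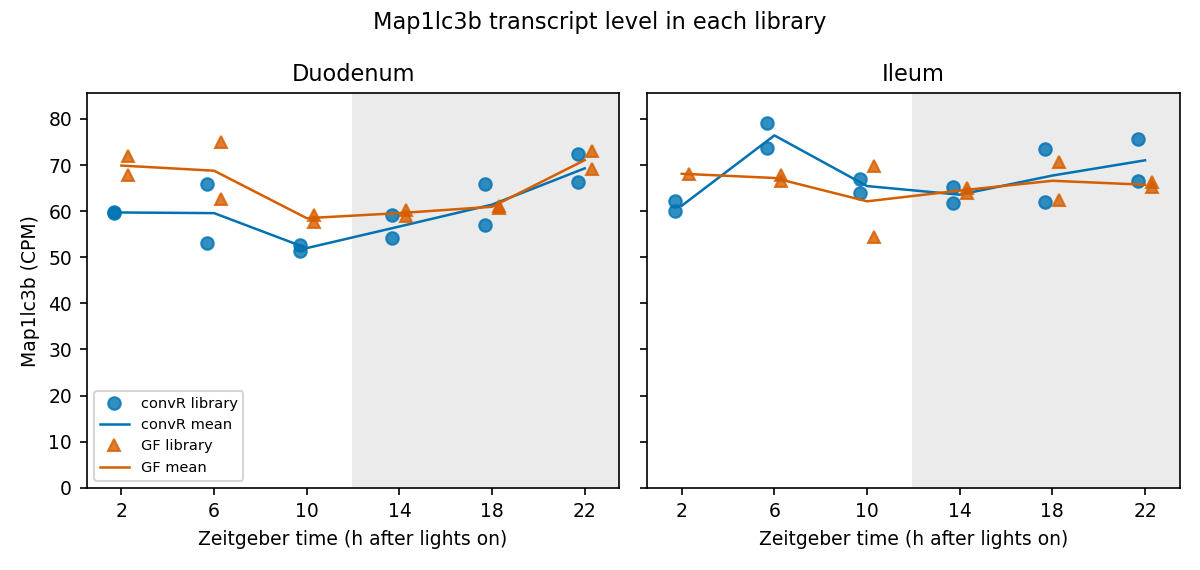
Map1lc3b level (TMM-scaled CPM, y axis from 0) in each library by zeitgeber time (h, x axis) in duodenum and ileum, with circles for convR, triangles for GF, lines through the means and the hours from ZT 12 shaded. In duodenum the means are lowest at ZT 10, at 52.0 CPM in convR and 58.5 CPM in GF, and highest at ZT 22.

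The rest of the pathway was described by 11 lists of 109 further genes in the table. In duodenum 62 of 108 tested passed between GF and convR, 51 higher and 11 lower in GF, with a median of 0.14 log2. In ileum 45 of 109 passed, 24 higher and 21 lower, with a median of 0.05 log2. The share that passed was 57.4% in duodenum, where 46.3% of all genes did, and 41.3% in ileum, where 42% did. Without the libraries that stood apart 56 passed in duodenum (47 higher) and 47 in ileum (27 higher). With libraries scaled by their total alone 40 passed in duodenum, 23 of them higher, and 41 in ileum, where 15 were higher and 26 lower, so that the majority in ileum turned.

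**Figure D5:**
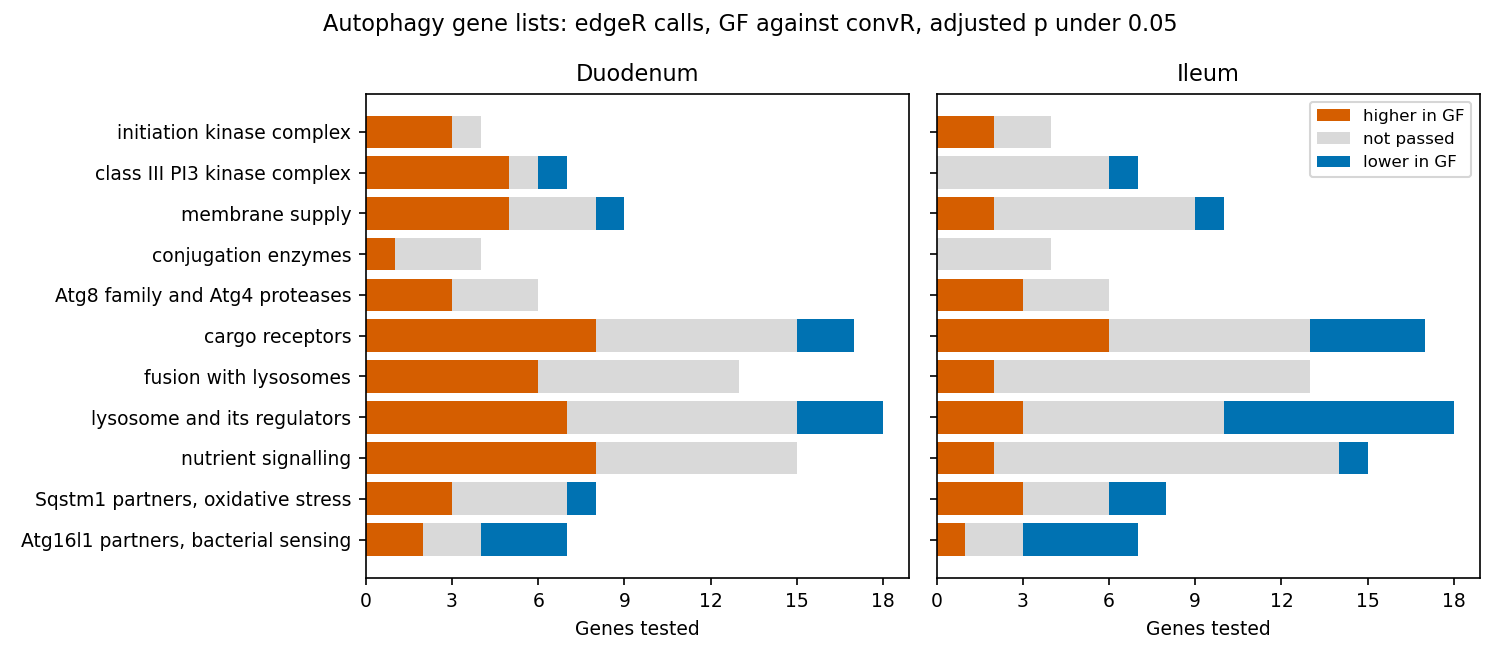
Number of genes of each list (x axis, genes tested) that were higher in GF, did not pass, or were lower in GF (edgeR, adjusted p under 0.05) in duodenum and ileum, the 10 genes described above not counted. Over the 11 lists 51 genes are higher and 11 lower in duodenum, against 24 higher and 21 lower in ileum.

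The counts of this list and those that follow stand beside the shares over all genes tested. In duodenum 22.5% of all genes were higher and 23.8% lower in GF, and in ileum 19.5% and 22.4%. A count near these shares does not set a list apart. Among partners of Ulk1 in the initiation complex, 3 of 4 rose in duodenum and 2 of 4 in ileum. Ulk2, the paralogue of Ulk1, rose by 0.56 log2 in duodenum, from 41.4 ± 3.35 to 61.0 ± 4.18 CPM (SD, n = 12 each) without overlap, and by 0.17 in ileum (edgeR, adjusted p = 3.18e-09 and 0.00142). Every GF duodenum library lay above every convR one for 1.6% of the genes tested. The scaffold Atg13 rose by 0.22 in duodenum and 0.23 in ileum (edgeR, adjusted p = 0.00877 and 0.00148). Of 7 partners of Becn1, 5 rose and 1 fell in duodenum, and 1 fell in ileum. Rubcn, an inhibitor of the complex, rose by 0.45 in duodenum and Atg14, its autophagy-specific subunit, by 0.26 (edgeR, adjusted p = 3.04e-06 and 0.00448). Uvrag, a subunit of the other form of the complex, fell by 0.18 in ileum (edgeR, adjusted p = 0.00592).

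Other genes supply membrane or act on the Atg8 proteins. Of the membrane supply list 5 of 9 tested rose and 1 fell in duodenum, and 2 of 10 rose and 1 fell in ileum. The lipid scramblase Atg9a rose by 0.52 log2 in duodenum and 0.37 in ileum (edgeR, adjusted p = 5.41e-05 and 0.000143). The lipid transfer protein gene Atg2a rose by 0.39 in duodenum (adjusted p = 0.0024, edgeR) and Tmem41b, a scramblase of the endoplasmic reticulum, by 0.24 in ileum (adjusted p = 0.00315, edgeR). Atg12, the ubiquitin-like partner of Atg5, rose by 0.33 in duodenum (adjusted p = 6.97e-05, edgeR), the 1 of 4 conjugation genes that passed. Of 6 further Atg8 family and Atg4 protease genes 3 rose in each tissue, with Atg4b at 0.17 and 0.15 in duodenum and ileum, Atg4c at 0.27 in duodenum and Atg4a at 0.21 in ileum.

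With libraries scaled by their total alone, Atg13, Atg14, Atg4b and Atg4c did not pass in duodenum, nor Atg4b and Vps11 in ileum.

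Cargo receptors, the class to which Sqstm1 belongs, bind what is to be degraded. In duodenum 8 of 17 rose and 2 fell, and in ileum 6 rose and 4 fell. Retreg1, a receptor for breakdown of the endoplasmic reticulum, went from 44.7 ± 9.50 to 105.9 ± 22.8 CPM in duodenum (SD, n = 12 each) without overlap (GF wholly higher for 1.6% of genes tested), a rise of 1.24 log2, and rose by 0.93 in ileum (edgeR, adjusted p = 3.87e-10 and 0.000125). Bnip3, a receptor for mitochondria, rose by 0.89 in duodenum (edgeR, adjusted p = 8.52e-07), with 0.02 in ileum (adjusted p = 0.828). Nbr1, which resembles Sqstm1 in its domains, rose by 0.23 in ileum (edgeR, adjusted p = 0.00112).

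Of 13 genes of the fusion step 6 rose in duodenum and 2 in ileum. The tether Epg5 rose by 0.35 in duodenum and 0.19 in ileum (edgeR, adjusted p = 7.55e-05 and 0.0307), the latter not without the libraries that stood apart (adjusted p = 0.0529) nor with libraries scaled by their total alone. Vps18 and Vps11, of the tethering complex HOPS, rose by 0.41 in duodenum and 0.13 in ileum, respectively (edgeR, adjusted p = 8.08e-05 and 0.02).

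Lysosomal genes were divided. Of 18 genes 7 rose and 3 fell in duodenum, while 3 rose and 8 fell in ileum. Tfeb, a transcription factor of lysosomal genes, rose by 0.33 log2 in duodenum (adjusted p = 1.39e-05, edgeR), and Psap, the saposin precursor, fell by 0.29 in ileum (adjusted p = 3.77e-05, edgeR).

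Of 15 nutrient signalling genes 8 rose in duodenum, and 2 rose and 1 fell in ileum. Foxo3, a transcription factor, and Prkaa2, a catalytic subunit of AMP-activated kinase, rose by 0.61 and 0.45 in duodenum (edgeR, adjusted p = 3.44e-06 and 9.12e-05). In ileum the mTOR inhibitors Sesn2 and Ddit4 moved apart, the first up by 0.27 log2, while Ddit4 fell by 0.25 (edgeR, adjusted p = 0.00335 and 0.00399).

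Sqstm1 also binds Keap1, the inhibitor of the oxidative stress response. Of 8 genes of that response 3 rose and 1 fell in duodenum, and 3 rose and 2 fell in ileum. Gclc, a subunit of the enzyme that begins glutathione synthesis, went from 73.0 ± 12.7 CPM (SD, n = 12) to 177.7 ± 39.0 CPM (SD, n = 11) in ileum without overlap (GF wholly higher for 1.52% of genes tested), a rise of 1.26 log2 (edgeR, adjusted p = 4e-10). Its partner subunit Gclm rose by 0.38 in duodenum (adjusted p = 0.000817, edgeR). The haem oxygenase Hmox1 fell by 1.10 in duodenum and by 0.87 in ileum (edgeR, adjusted p = 0.000368 and 1.55e-06).

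Partners of Atg16l1 in bacterial sensing were the 1 list in which more genes fell than rose in both tissues. Of 7 genes 2 rose and 3 fell in duodenum, and 1 rose and 4 fell in ileum, where 23.8% and 22.4% of all genes tested were lower in GF in duodenum and ileum. Tmem59, a membrane protein that binds Atg16l1, rose by 0.58 log2 in duodenum and 0.43 in ileum, from 296.7 ± 26.8 CPM (SD, n = 12) to 402.3 ± 32.2 CPM (SD, n = 11) there (edgeR, adjusted p = 1.04e-06 and 9.21e-08). Nod1, a receptor for bacterial peptidoglycan that recruits Atg16l1, fell by 0.43 in duodenum and by 0.61 in ileum (edgeR, adjusted p = 5.02e-05 and 1.78e-07). The leukocyte markers given above fell in the same libraries, and their part in these changes was not tested.

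The difference of the GF effect between the tissues passed for 12 of the 109 genes (12.3% of all genes passed), and all 12 were lower in ileum than in duodenum (7.69% of all genes). Bnip3 differed by -0.86 log2, Foxo3 by -0.68 and Nod2, a second peptidoglycan receptor, by -0.92 (edgeR, adjusted p = 1.46e-05, 3.1e-05 and 0.0014). Nod2 fell in both tissues, by 0.60 in duodenum and by 1.53 in ileum, whereas Foxo3 rose in duodenum and was at -0.08 in ileum (edgeR, adjusted p = 0.377). Keap1 rose in duodenum (0.12, edgeR, adjusted p = 0.0277) and fell in ileum (-0.15, adjusted p = 0.00124). Without the libraries that stood apart 15 genes passed, 3 of them higher in ileum.

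Between tissues 82 of the 109 passed, 30 higher and 52 lower in ileum, where 69.7% of all genes passed. With libraries scaled by their total alone 79 passed, 43 higher and 36 lower, so that the majority turned, and without the libraries that stood apart 80 passed, 26 of them higher. Rhythms of 24 h passed for 13 of 108 in duodenum and 6 of 109 in ileum, 12% and 5.5% beside 5.7% and 3.67% of all genes, and for 12 and 5 without the libraries that stood apart. Bnip3, Tfeb, Lamp2 and Gclc were among those that passed in both tissues. Lamp2, a membrane protein of lysosomes, had its fitted peak at ZT 1.1 in duodenum and ZT 3.27 in ileum, and Bnip3 at ZT 11.8 and ZT 13.8. The Bnip3 ranges were 0.81 log2 in duodenum and 0.79 in ileum (edgeR, adjusted p = 0.00659 and 0.000145). These 4 were named after their values were seen.

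The counts of rhythmic genes depended on single libraries. In duodenum 8 passed without convR ZT 10 replicate 1 or without convR ZT 14 replicate 2, and 7 without GF ZT 2 replicate 2. In ileum 10 passed without convR ZT 22 replicate 1 and 3 without GF ZT 2 replicate 2, the only GF library of that time.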

How the data were processed

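Per the labels' protocols, total RNA of each tissue was extracted with the miRNeasy Mini kit, depleted of ribosomal RNA and made into stranded TruSeq libraries. Per the submitters' processing notes, STAR 2.4.0i and the mm10 build were used. For the counting program, annotation and strand the sources used here give nothing, so reads of overlapping genes may be shared. The authors deposited raw read counts over exons per gene, with the exon length in bases. Genes were matched by identifier to GENCODE M21 (36308 of 38087).

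From the deposited counts, quasi-likelihood tests of edgeR 4.0.16 (robust estimates) were run on all genes that passed its low-count filter at a minimum of 10 (17986 in duodenum, 18082 in ileum, 19000 together), with TMM scaling, ZT as a factor for status and tissue contrasts, and cosine and sine of 24 h for rhythms. Adjusted p-values are two-sided Benjamini-Hochberg values over all genes tested, with a threshold of 5%. Peaks and ranges come from the fitted cosine. CPM are TMM-scaled over the 47 libraries, and correlations used log2 CPM with a prior count of 0.5. DESeq2 1.42.0, other scaling, no filter, a replicate block and leaving out libraries were alternatives. The fits were tested on simulated data.

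The genes and lists were chosen with earlier results of these data known. Of each list the text names, per status comparison and for the difference, up to 2 genes with the smallest p among those that passed. The 5 genes most like Atg16l2 needed a mean of at least 2 CPM, and its neighbours were the 2 nearest on each side and the 1 overlapping it, kept to protein-coding genes, a narrowing of the naming rule made later. Libraries that stood apart, and ZT 22, were picked for exclusion after the data were seen. Vamp7, of the fusion list, was not matched to the table and is not used here. Some genes that the naming rule picks are not reported here.

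Replicates of 1 time differed beyond counting error in each of 23 pairs.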

Additional observations from a re-analysis of the deposited data

Results flagged for a closer look

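For 10 named genes of the pathway lists the change between GF and convR differed between the tissues by the test of that difference (edgeR, all 47 libraries), with the log2 change in ileum minus that in duodenum given for each. The value was -0.38 for Ulk2, -0.36 for Rubcn, -0.47 for Optn, -0.86 for Bnip3, -0.36 for Snap29 and -0.37 for Vps18. It was -0.32 for Ctsb, -0.68 for Foxo3, -0.26 for Keap1 and -0.92 for Nod2. Optn, a receptor for ubiquitin-tagged cargo, rose by 0.51 log2 in duodenum (edgeR, adjusted p = 1.04e-05) and was at 0.03 in ileum (adjusted p = 0.719). Snap29, a fusion protein of the autophagosome, rose by 0.44 in duodenum (edgeR, adjusted p = 0.000127) and was at 0.08 in ileum (adjusted p = 0.365), and its difference did not pass without convR duodenum ZT 6 replicate 1 (adjusted p = 0.0527) or GF duodenum ZT 10 replicate 2 (adjusted p = 0.059). The lysosomal protease gene Ctsb was at 0.16 in duodenum (edgeR, adjusted p = 0.0518) and fell by 0.16 in ileum (adjusted p = 0.00378).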

How the results depend on the processing

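Scaling moved many calls. With libraries scaled by total alone the median of all genes moved by -0.13 log2 in duodenum, and of the genes called there 2143 were higher and 6618 lower in place of 4041 and 4287. In ileum the split went from 3535 and 4052 to 2316 and 4866, and for the tissue difference of the GF effect from 870 and 1461 to 1214 and 968. In duodenum 40 of the further autophagy genes then passed in place of 62, Map1lc3b turned to -0.0112, and 2 of the 10 genes were rhythmic. No gene of the 10 was rhythmic in duodenum with no filter on low counts, with ZT as a factor, without the libraries that stood apart or without ZT 22 (0 each). Further autophagy genes rhythmic in duodenum numbered 22 with DESeq2 and 5 with ZT as a factor, and in ileum 12 with DESeq2, 3 with ZT as a factor and 14 without ZT 22. For the tissue difference of the GF effect, 1 of the 9 genes passed without ZT 22. Leaving out 1 library at a time gave 0 to 1 for that count, 7 to 14 further rhythmic genes in duodenum and 3 to 10 in ileum. The cause of these shifts was not tested. Atg16l2 kept its direction under every alternative run, from -0.53 to -0.35 log2 in duodenum and from 1.36 to 1.51 in ileum. The replicate block was the replicate number within a tissue and, in comparisons of the tissues, the pair of libraries with the same status, ZT and number. It changed no call among 131 single-gene values and left the counts of the 10 genes as they were. The counts of further autophagy genes went with it from 62 to 65 in duodenum, 45 to 50 in ileum, 12 to 17 for the tissue difference of the GF effect, 82 to 85 between tissues, and 13 to 16 and 6 to 7 for rhythms in duodenum and ileum. Libraries with the same number correlated in their deviations at 0.15 to 0.562 between the tissues in convR (6 of 6 pairs above 0.1) and at -0.02 to 0.336 in GF (2 of 5), and across status at -0.064 to 0.24 in duodenum and -0.0025 to 0.375 in ileum. As not every pair was above 0.1, the tests in the text treat the libraries as independent. That choice does not show that they are, since the convR numbers may mark the same animal in both tissues. Of the single-gene values under alternatives that did not leave out 1 library, 948 kept their call, 20 no longer passed, 5 newly passed and 1 reversed. A change of direction was scored only where the main or the alternative run passed, and not for rhythms. Depth limits Atg16l2 in duodenum, where a library held as few as 66 reads.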
